A study of Mus musculus with 12 samples.

Results

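The genes described here encode the machinery that takes proteins into the endoplasmic reticulum (ER) and packs them into transport vesicles. They were taken by a name rule, as protein-coding genes whose symbols match the Sec, Ssr, Srp, Spcs, Cop, Tmed and Kdelr families. The rule was set with earlier results of these data known, so the shares below are a description only. The name rule gave 61 of the 21197 protein-coding genes in the tables, on 92 of 32395 protein-coding loci. Of these genes, 6 were matched by name only and are not parts of these complexes (Sec1 and Sec14l1 to Sec14l5), and 55 fall into 8 classes by role.

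Liver RNA of male, wild-type C57BL/6 mice on the diet labelled NCD (the methods name C57BL/6N) was sequenced at 17 weeks of age, in 3 groups of 4 libraries. RF mice went without food for 16 h and were then refed for 6 h, FA mice went without food for 16 h, and AL mice ate ad libitum. The study asked which liver transcripts follow the supply of nutrients. No group carried a mutation or a transgene, and no source used here states when in the day livers were collected, so the fast and the time of day cannot be told apart.

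A hepatocyte secretes most proteins of the blood plasma. A signal peptide emerging from the ribosome is bound by the signal recognition particle (SRP), which brings the ribosome to the Sec61 channel in the ER membrane, and signal peptidase then removes the signal peptide. COPII-coated vesicles carry the folded protein from the ER to the Golgi, and COPI-coated vesicles return escaped ER proteins and transport receptors. Part of this machinery is known to be induced by XBP1 and ATF6, transcription factors of the unfolded protein response.

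The promoters of 3 members are shown, since Sec61b and Sec23b had the lowest ratios of FA to AL among the measured members, while Sec23a, the paralogue of Sec23b, lay on the other side of 0. Each window is the RefSeq promoter on GRCm38.p6, 250 bases before and 50 bases after the annotated start, written along the strand of the gene. Capitals mark the UPRE core TGACGTG, a site bound by XBP1 and ATF6, and the CCAAT box (CCAAT, or ATTGG on the other strand). The windows of Sec61b, Sec23b and Sec23a lie at chr4:47474411-47474710 (plus strand), chr2:144555979-144556278 (plus strand) and chr12:59011968-59012267 (minus strand), and that of Sec23b is the first of its 2 annotated starts.
Sec61b: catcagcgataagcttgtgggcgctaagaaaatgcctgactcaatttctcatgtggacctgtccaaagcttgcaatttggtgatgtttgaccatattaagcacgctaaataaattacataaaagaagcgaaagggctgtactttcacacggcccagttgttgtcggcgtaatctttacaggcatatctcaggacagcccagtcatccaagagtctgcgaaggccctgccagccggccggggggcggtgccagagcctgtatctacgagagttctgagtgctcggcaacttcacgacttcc
Sec23b: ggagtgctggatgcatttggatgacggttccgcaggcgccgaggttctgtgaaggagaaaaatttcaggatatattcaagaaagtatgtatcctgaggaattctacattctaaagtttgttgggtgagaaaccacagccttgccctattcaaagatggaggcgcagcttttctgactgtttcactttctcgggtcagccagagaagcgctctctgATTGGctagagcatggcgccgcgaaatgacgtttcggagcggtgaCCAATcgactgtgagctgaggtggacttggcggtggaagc
Sec23a: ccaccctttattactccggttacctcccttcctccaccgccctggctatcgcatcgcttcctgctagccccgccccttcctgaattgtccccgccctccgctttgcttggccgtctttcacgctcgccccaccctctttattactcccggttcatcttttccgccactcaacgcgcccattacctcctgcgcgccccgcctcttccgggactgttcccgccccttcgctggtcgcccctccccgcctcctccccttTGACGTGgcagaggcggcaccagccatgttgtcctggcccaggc

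The Sec61b window held neither motif, the Sec23b window held 2 CCAAT boxes, and the Sec23a window held 1 UPRE core, just after the start. RefSeq promoters were found for 50 of the 61 members, and 6 of them (12%) held the UPRE core on either strand, against 2.22% of all 27025 genes with a promoter window of the same length. The 6 matches are shown with 10 bases on each side, read along the strand that holds the motif, because the base after the core is g in all of them.
Copb1: agtccttggcTGACGTGgaagggggcg
Copb2: gccaacccacTGACGTGgaacttccgg
Kdelr3: ggccgcgcggTGACGTGgcggggcggc
Sec16b: tctgtgtggcTGACGTGgcacggcagt
Sec23a: tcctccccttTGACGTGgcagaggcgg
Sec24d: cccgggcgccTGACGTGgcactagcaa

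These windows lie at chr7:114254691-114254717 (plus strand) for Copb1, chr9:98563715-98563741 (minus strand) for Copb2, chr15:79516369-79516395 (minus strand) for Kdelr3, chr1:157506742-157506768 (plus strand) for Sec16b, chr12:59011995-59012021 (minus strand) for Sec23a and chr3:123267460-123267486 (plus strand) for Sec24d. The core extended by that base, TGACGTGG, was in the windows of 193 of all genes (0.714%). This longer motif was chosen after the matches were read. None of the 6 members was past 1.5-fold in FA against AL, where their log2 ratios ran from -0.39 (Sec24d) to 0.25 (Sec23a). Of the 13 members at least 1.5-fold lower in FA, 10 had a promoter window, and 0 of these held the UPRE core (2.22% of all genes). A set of 10 is too small to be told apart from that share. The CCAAT box was in 6 of these 10, against 41.1% of all genes. The ER stress element (CCAAT, 9 bases, CCACG) and its second form (ATTGG, 1 base, CCACG) were in 0 members, and in 0.137% and 0.0444% of all genes. Of their parts, CCAAT alone was in 21 members (42%, against 41.1% of all genes) and CCACG alone in 30 (60%, against 35.5%). The last letters of the UPRE core with the g after it, CGTGG, read CCACG on the other strand. Each of the 6 UPRE matches therefore holds a CCACG, and these 6 members are among the 30. The member windows were richer in G and C, with a median of 59.2% against 52.8% over all genes, and the part of base composition in these shares was not tested.

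The tables hold FPKM (sequenced fragments relative to transcript length and to library size), pooled by the authors into 1 value per group and locus. They give no value of a single library and no counts, so the depth is unknown and no SD or test could be computed from these values. The test columns of the authors are in the tables and were left out by choice, so no difference below is set against the spread between mice. Members are therefore called higher or lower where 2 groups lay at least 1.5-fold apart (0.585 on the log2 scale) at a mean FPKM of at least 1. One locus was taken per gene, that with the highest mean FPKM in FA and AL. The strand of a locus was read from the order of locus numbers. Of the 66468 loci, 36.9% of those above 0 with a strand were placed opposite to the gene whose name they carry. These are called opposite-strand loci, and whether they are separate antisense transcripts was not tested. Among the members, 6 such loci were the highest of their gene (Srp9, Tmed10, Tmed3, Tmed7, Sec22c and Sec14l1), and 25 members had loci on both strands. In these 25 the same start and end are listed for the loci of both strands. The listed ends are shared by all loci of a gene, so they do not show where an opposite-strand transcript begins or ends. A value of 0 is given only as listed at 0, since Alb, the albumin gene, is listed at 0 in these livers. The other hepatocyte markers were abundant, with summed FPKM of 7858 in FA and 7247 in AL over the list of 7.

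Most secretory genes had lower pooled FPKM in the fasted liver, and the lowest class medians were those of signal peptidase and of the Sec61 channel with its partners. At a mean FPKM of at least 1, 56 members were measured in FA and AL. Of these, 13 (23.2%) were at least 1.5-fold lower in FA, against 7.63% of 9427 protein-coding genes, and 2 (3.57%) were at least 1.5-fold higher, against 4.76%. The other 41 lay within 1.5-fold. The median log2 ratio of FA over AL was -0.28 over the members and -0.04 over all measured protein-coding genes, and 46 members lay below 0, against 10 above it (82.1% below, against 55.7% of all genes). The Sec61 channel with its partners and signal peptidase together gave 8 of the 13 lower members from 14 measured genes, and the other classes gave 5 from 42. Copg1 and Ssr3, just past the limit, fall within it when ratios are centred on the median of all genes, and Copg1, Spcs3, Sec61a2 and Tmed5 do so on the log2(FPKM + 1) scale.

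**Figure D1:**
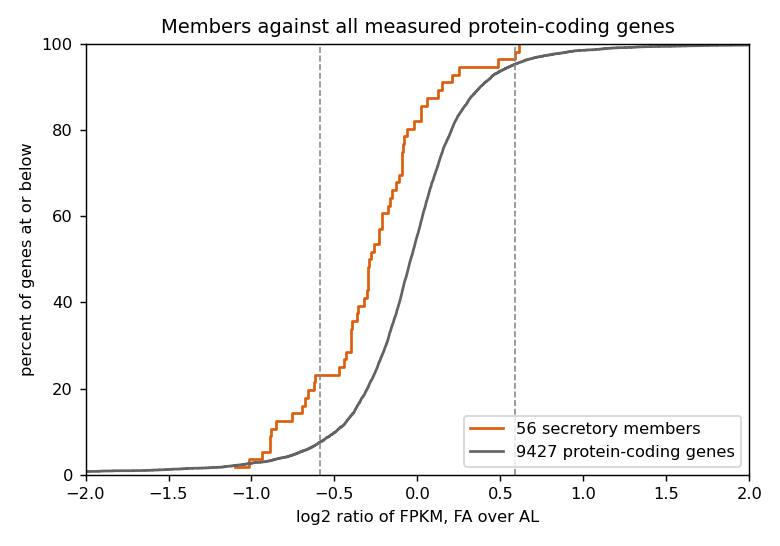
Cumulative percent of genes (y axis) at or below each log2 ratio of FA over AL (x axis, drawn from -2 to 2), for the 56 measured members and for 9427 measured protein-coding genes; dashed lines mark 1.5-fold. The curve of the members lies left of that of all genes over most of its length, with medians of -0.28 and -0.04.

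**Figure D2:**
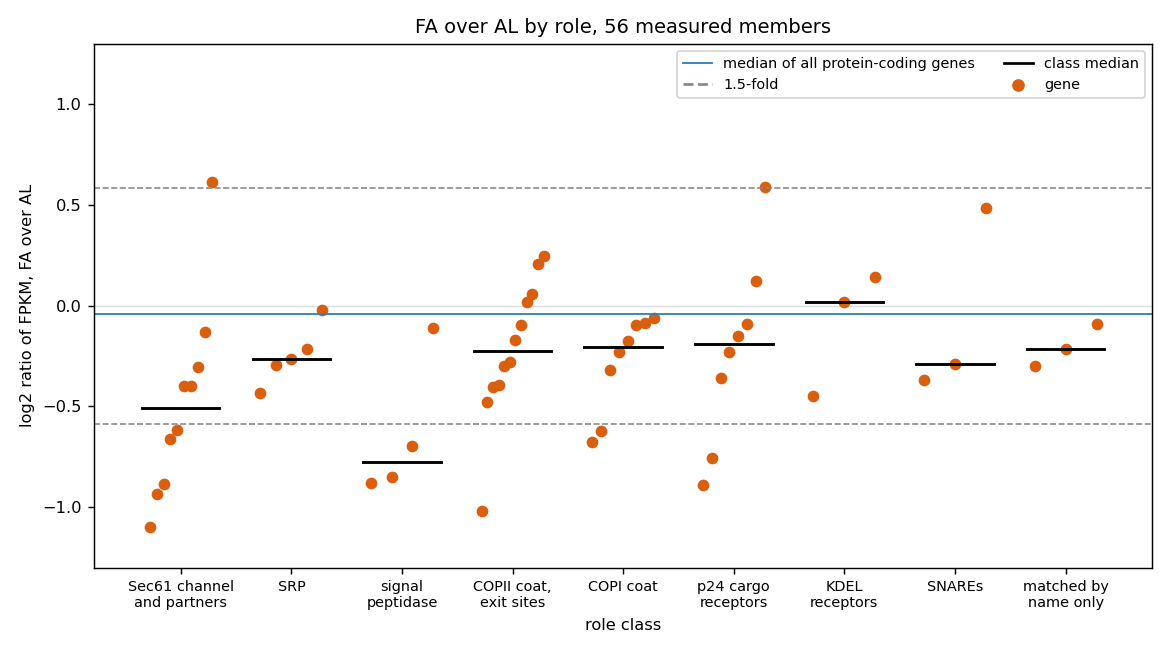
Log2 ratio of FA over AL (y axis) of each measured member (points) by role class (x axis), with class medians as black bars, the median of all protein-coding genes as a blue line and 1.5-fold as dashed lines. Signal peptidase and the Sec61 channel have the lowest medians, -0.77 and -0.51.

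The Sec61 channel is a pore of 3 subunits. Sec61b, its small beta subunit, had an FPKM of 16.7 in FA and 35.8 in AL, a log2 ratio of -1.10 and the lowest of all members. Sec61g, the gamma subunit that clamps the channel, had 7.68 in FA and 14.7 in AL (log2 ratio -0.94). Sec61a1, the pore-forming alpha subunit, had 20.6 in FA and 32.6 in AL (-0.66). All 3 subunits of the major channel were thus lower in FA. The rarer alpha paralogue Sec61a2 went the other way, at 1.31 in FA and 0.856 in AL (0.61), but its mean of 1.08 lies just above the minimum.

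Sec62 and Sec63 assist the channel with chains that enter after their synthesis or need help to start. Their values lay within 1.5-fold, with 17.2 in FA and 18.8 in AL for Sec62, and 12.6 in FA and 15.6 in AL for Sec63. The translocon-associated protein complex (TRAP, encoded by Ssr1 to Ssr4) sits beside the channel. Ssr1 had 2.19 in FA and 4.05 in AL (log2 ratio -0.89), and Ssr3 had 26.0 in FA and 39.9 in AL (-0.62). Ssr4, the most abundant member of the class, had 33.7 in FA and 44.4 in AL, and Ssr2 had 18.2 in FA and 23.99 in AL, both with a log2 ratio of -0.40. In the class as a whole, 5 of 10 genes were at least 1.5-fold lower in FA (7.63% of all genes) and 1 was higher (4.76%).

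Signal peptidase is made of a catalytic subunit and small membrane partners, and 3 of its 4 members were lower (7.63% of all genes). Sec11c, a catalytic subunit, had an FPKM of 6.97 in FA and 12.8 in AL (log2 ratio -0.88). Spcs3, a partner needed for cleavage, had 1.65 in FA and 2.98 in AL (-0.85), and Spcs2 had 22.6 in FA and 36.6 in AL (-0.70). Spcs1, the most abundant, stood apart at 31.9 in FA and 34.5 in AL (-0.11).

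The SRP, which acts before the channel, had 0 of 5 measured genes past 1.5-fold, against 7.63% of all genes lower and 4.76% higher. A set of 5 is too small to be told apart from these shares. All 5 lay below 0, between -0.43 (Srp68) and -0.02 (Srp14). Srp72, a large SRP protein that works as a pair with Srp68, had 23.2 in FA and 26.9 in AL, on a locus that also names Arl9. The Alu-domain proteins Srp9 and Srp14, which slow the ribosome, had 10.2 in FA and 12.6 in AL for Srp9 (an opposite-strand locus) and 9.74 in FA and 9.89 in AL for Srp14.

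**Figure D3:**
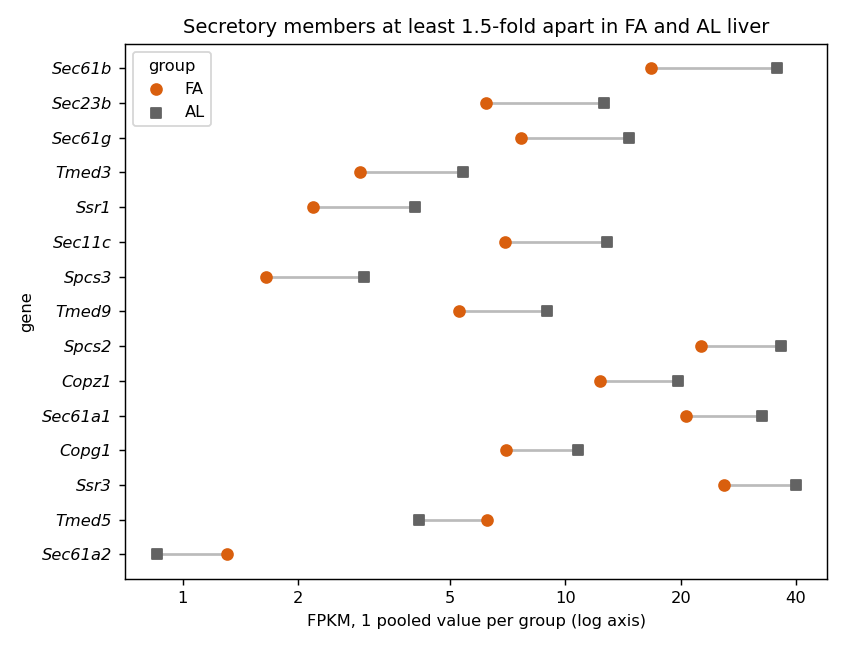
FPKM in FA (circles) and AL (squares) on a log axis, 1 pooled value per group without error bars, for the 15 members at least 1.5-fold apart, ordered from the lowest ratio of FA over AL at the top. In 13 genes the FA value lies left of the AL value, and in Tmed5 and Sec61a2 right of it.

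The COPII coat has an inner layer of SEC23 and SEC24, which bind the SAR1 GTPase and the cargo, an outer layer of SEC13 and SEC31, and SEC16 as a scaffold at ER exit sites. Of its 12 genes, 1 was at least 1.5-fold lower in FA (8.33%, near the 7.63% of all genes). The other 11 lay between -0.48 and 0.25 on the log2 scale. Sec23b had an FPKM of 6.22 in FA and 12.6 in AL (log2 ratio -1.02), whereas Sec23a had 27.8 in FA and 23.4 in AL (0.25). The cargo-binding Sec24 genes were spread over both sides of 0, from Sec24d with 9.97 in FA and 13.1 in AL (-0.39) to Sec24b with 3.31 in FA and 2.86 in AL (0.21). The outer coat lay lower within the limit. Sec13 had 14.0 in FA and 19.5 in AL (-0.48), the closest to the limit among the members below 0 that did not pass it, and Sec31a had 16.2 in FA and 19.6 in AL (-0.28). Sec31b is listed at 66.3 in FA and 70.7 in AL, but its locus also names Ndufb8 and Gm20538, so the value cannot be given to Sec31b.

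The COPI coat, or coatomer, is a complex of 7 kinds of subunit with paralogues for gamma and zeta. All 8 members lay below 0, and 2 (25%) were at least 1.5-fold lower in FA, against 7.63% of all genes. Copz1, a zeta subunit, had an FPKM of 12.3 in FA and 19.6 in AL (log2 ratio -0.68), and Copg1, a gamma subunit, had 7.01 in FA and 10.8 in AL (-0.62). Their paralogues Copz2 and Copg2 lay close to 0, with 7.20 in FA and 7.68 in AL for Copz2 and 9.04 in FA and 9.44 in AL for Copg2. The most abundant subunits were within the limit, and the 6 members inside it lay between -0.32 and -0.06. Copa had 32.4 in FA and 38.0 in AL (-0.23), Cope had 23.7 in FA and 29.6 in AL (-0.32), and Copb2 had 23.6 in FA and 25.0 in AL (-0.08).

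The p24 proteins (Tmed genes) are membrane receptors that sort cargo into COPII and COPI vesicles. Tmed3 had an FPKM of 2.90 in FA and 5.39 in AL (log2 ratio -0.89, an opposite-strand locus), and Tmed9 had 5.29 in FA and 8.94 in AL (-0.76). Tmed5 was higher, at 6.25 in FA and 4.15 in AL (0.59), just past the limit. The other 5 measured p24 genes lay between -0.36 and 0.13. Tmed10 and Tmed2, core members of p24 complexes, had 7.30 in FA and 9.36 in AL for Tmed10 (an opposite-strand locus) and 11.1 in FA and 11.9 in AL for Tmed2. Tmed7 had 17.8 in FA and 20.9 in AL on an opposite-strand locus that also names Eif1a. Tmed11 is listed at 0 in both groups, and Tmed6 is listed at 0 in FA and at 0.00952 in AL.

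The KDEL receptors, which return escaped ER chaperones from the Golgi, had 0 of 3 genes past the limit. Kdelr2 had 7.41 in FA and 10.1 in AL (log2 ratio -0.45), Kdelr1 had 18.6 in FA and 16.8 in AL (0.15), and Kdelr3 had 14.3 in FA and 14.1 in AL (0.02). The Sec22 SNAREs, which fuse vesicles with their target membrane, also had 0 of 3. Sets of 3 are too small to be told apart from the shares of all genes (7.63% lower and 4.76% higher). Sec22b had 6.80 in FA and 8.77 in AL (-0.37), Sec22c had 3.56 in FA and 2.54 in AL (0.49, an opposite-strand locus), and Sec22a had 1.90 in FA and 2.33 in AL (-0.29). Of the genes matched by name only, Sec14l2 and Sec14l4, which encode lipid-binding proteins, were abundant at 76.6 in FA and 88.9 in AL for Sec14l2 and 72.5 in FA and 77.0 in AL for Sec14l4. Sec14l1 had 1.40 in FA and 1.73 in AL (an opposite-strand locus), Sec14l5 was near 0, and Sec1 and Sec14l3 are listed at 0.

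The values within a gene give a check on these ratios, though not an independent one, since the loci come from the same pooled libraries. In 23 members with several measured loci, the loci of 22 lay on the same side of 0 in FA over AL, with a median spread of 0.10 and a highest spread of 0.26 on the log2 scale. The exception was Copz2, at -0.09 on its annotated locus and 0.15 on the opposite one.

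Other genes of the pathway were on a fixed list of 48, of which 46 were in the tables and 45 were measured. Of the 45, 11 were at least 1.5-fold lower in FA (7.63% of all protein-coding genes) and 1 was higher (4.76%). Their median log2 ratio was -0.29, against -0.04 over all genes. This list too was chosen with earlier results of these data known, so it is not an independent check. Tram1, a membrane protein beside the channel, had 33.4 in FA and 59.4 in AL (log2 ratio -0.83). The oligosaccharyltransferase, which adds N-glycans at the channel, had 4 of its 7 listed genes past the limit (Ddost, Rpn1, Ostc and, just past it, Stt3a at -0.59), while Dad1 (-0.35), Rpn2 (-0.33) and Stt3b (-0.09) lay within it. Rpn1 had 20.2 in FA and 36.8 in AL (-0.86), and Ostc had 8.60 in FA and 15.8 in AL (-0.87). Preb, the exchange factor that loads SAR1 to start a COPII coat, had 11.9 in FA and 18.4 in AL (-0.63). Tfg, an organiser of ER exit sites, had 13.4 in FA and 20.9 in AL (-0.64). The gene past the limit in the other direction was Mia3, a receptor for bulky cargo, with 82.5 in FA and 47.1 in AL (0.81) on an opposite-strand locus.

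Of the regulators fixed with them, 0 of 6 measured were past 1.5-fold in FA against AL, against 7.63% of all genes lower and 4.76% higher. A set of 6 is too small to be told apart from these shares. Xbp1 had an FPKM of 22.1 in FA and 28.9 in AL (log2 ratio -0.39), and Atf6 had 14.1 in FA and 17.6 in AL (-0.32), both on opposite-strand loci. Creb3l3, which encodes a membrane-bound liver factor, had 43.8 in FA and 29.7 in AL (0.56, just short of the limit). FPKM of Xbp1 does not show the splicing that activates it.

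Markers of other cells also differed between the pooled values, and their part in the member ratios was not tested. Summed FPKM was 19.7 in FA and 23.5 in AL over 6 Kupffer cell markers, 30.3 in FA and 34.4 in AL over 5 endothelial markers, 47.7 in FA and 54.3 in AL over 5 stellate cell markers, and 562 in FA and 758 in AL over 3 erythroid markers. It was 5.51 in FA and 7.29 in AL over 5 cholangiocyte markers, and 3.12 in FA and 5.22 in AL over 3 neutrophil markers. For plasma and B cells, which are rich in ER, it was 2.55 in FA and 2.40 in AL over 4 markers. Most of this was Mzb1, with 1.91 in FA and 1.64 in AL on an opposite-strand locus that names 2 genes, and Jchain had 0.194 in FA and 0.292 in AL. T cell markers summed to 0.250 in FA and 0.226 in AL. Of 4 pancreas markers 3 are listed at 0 in both groups, while Cela1 had 29.6 in FA and 60.4 in AL on an opposite-strand locus. Of the hepatocyte list, Ttr had 1504 in FA and 2324 in AL, and Cyp2e1 had 2654 in FA and 1031 in AL. The sums hide markers that went different ways. Lyve1, the 1 of 5 endothelial markers above 0, had 5.76 in FA and 3.69 in AL on an opposite-strand locus. Of the 4 measured stellate cell markers, 2 lay below 0 and 2 above. Dcn, most of their sum, had 35.6 in FA and 35.2 in AL on an opposite-strand locus. Col3a1 had 3.59 in FA and 7.91 in AL. Hbb-bs, most of the erythroid sum, had 527 in FA and 704 in AL, also on an opposite-strand locus. Other listed markers, among them S100a8, S100a9, Lrat and Des, were on opposite-strand loci too. In whole liver, fewer cells of a type and less RNA per cell cannot be told apart.

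The second table compares RF with FA, sharing the FA libraries with the first, and holds 1 assembled transcript per locus. At the chosen loci of the 56 measured members, the FA value of that transcript was under 10% of the FA value of the locus in 40, so for most members it holds a small part of the FPKM of the locus. A mean FPKM of at least 1 left 15 members. Of these, 0 were at least 1.5-fold lower in RF, against 7.48% of 4052 protein-coding genes, and 4 (26.7%) were at least 1.5-fold higher, against 9.4%. The median log2 ratio of RF over FA was 0.46 over the 15 and 0.04 over all genes. Without the minimum it turned to -0.13 over 56 members, with 20 lower and 13 higher, and was 0.01 over 13574 genes, of which 25.7% were lower and 25.8% higher. The 4 higher transcripts were those of Ssr1, with 4.05 in RF and 1.79 in FA (log2 ratio 1.17, part of the locus), Spcs3, Tmed3 and Kdelr2. In 7 of the 15 members the FA values of the tables matched within 10%, and only there were RF and AL set side by side. At these 7 loci, 0 were past 1.5-fold in RF against AL in either direction, against 7.16% lower and 3.3% higher over 2669 protein-coding genes.

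More members could be followed through the 3 groups when, for each gene, the locus with the highest mean FPKM was taken among those whose FA values matched. This choice was made after the tables were read. It gave 26 members, 22 of them on opposite-strand loci, and 24 reached the minimum in all comparisons. At these matching loci 7 of 24 members were at least 1.5-fold lower in FA against AL (8.1% of all genes) and 0 were higher (4.84%), while 0 were lower in RF against FA (5.25%) and 9 were higher (6.83%). In RF against AL, 0 were lower (5.4%) and 0 were higher (3.11%). The median log2 ratios were -0.33 for FA over AL, 0.34 for RF over FA and 0.10 for RF over AL. FA had the lowest of the 3 values in 20 of 24 members (83.3%) and the highest in 2 (Sec16b and Sec23a). Over the 4690 protein-coding genes at matching loci, FA was the lowest in 40.7% and the highest in 34.3%, and both comparisons share the FA libraries.

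**Figure D4:**
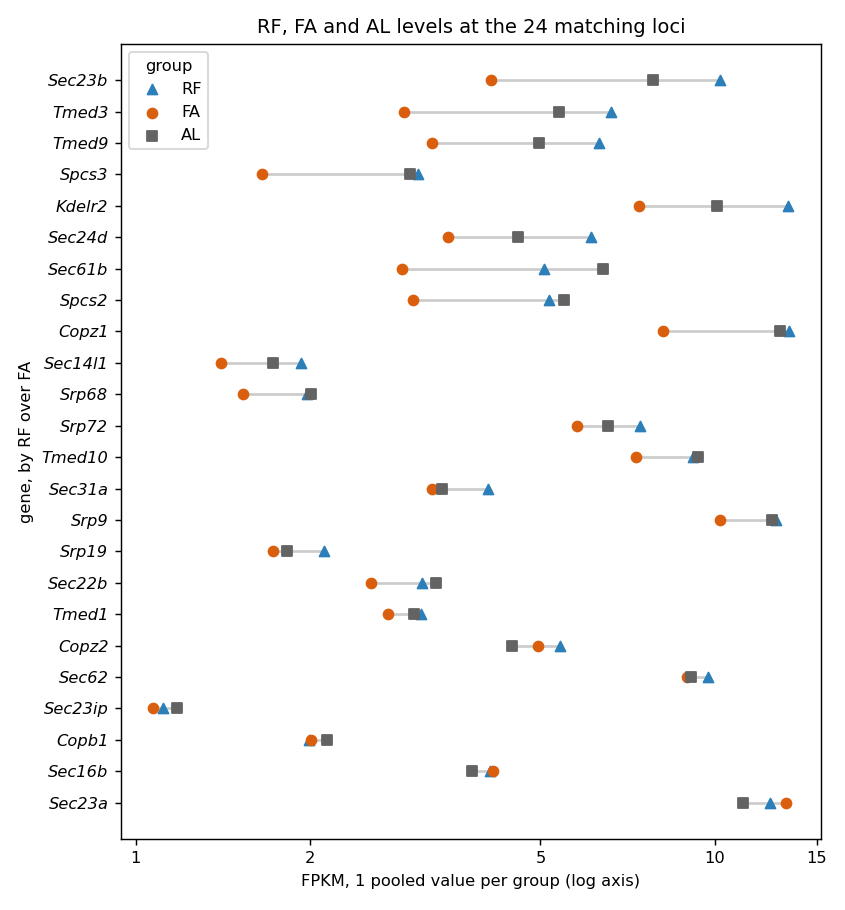
FPKM in RF (triangles), FA (circles) and AL (squares) on a log axis, 1 pooled value per group without error bars, at the matching loci of 24 members ordered by RF over FA, highest at the top. FA lies lowest in 20 of 24 genes, against 40.7% of all genes at matching loci, and RF and AL lie within 1.5-fold of each other at the 24 loci drawn. Of these loci, 21 are opposite-strand loci.

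For entry into the ER, the matching loci included those of Sec61b, Spcs2 and Spcs3. Apart from that of Spcs3, the loci of this paragraph are opposite-strand loci. The annotated locus of Sec61b had a higher FPKM, 16.7 in FA, but did not match. Sec61b had 5.07 in RF, 2.88 in FA and 6.40 in AL, so RF lay nearer to AL than to FA but below it (log2 ratio of RF over AL -0.34, the lowest of the 24). Spcs2 had 5.16 in RF, 3.01 in FA and 5.50 in AL. Spcs3, on its annotated locus, had 3.07 in RF, 1.65 in FA and 2.98 in AL. For both peptidase partners RF and AL were within 0.10 of each other on the log2 scale. Sec62 showed little difference, with 9.73 in RF, 8.96 in FA and 9.09 in AL. The SRP genes kept within 1.5-fold throughout, as Srp9 with 12.7 in RF, 10.2 in FA and 12.6 in AL.

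Among the coats, the loci followed here were all opposite-strand loci. Sec23b had 10.2 in RF, 4.11 in FA and 7.81 in AL, with a log2 ratio of RF over FA of 1.31, the highest of the 24. Sec23a had 12.4 in RF, 13.3 in FA and 11.2 in AL and stayed within 1.5-fold in each comparison. Sec24d had 6.12 in RF, 3.46 in FA and 4.57 in AL, and its log2 ratio of RF over AL, 0.42, was the highest of the 24. Copz1 had 13.4 in RF, 8.13 in FA and 13.0 in AL, and Copz2 had 5.41 in RF, 4.96 in FA and 4.47 in AL. Sec23b, Sec24d and Copz1 were thus more than 1.5-fold apart between RF and FA, and Sec23a and Copz2 were not.

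Of the receptors, Tmed3 had 6.61 in RF, 2.90 in FA and 5.39 in AL (log2 ratio of RF over FA 1.19). Tmed9 had 6.31 in RF, 3.24 in FA and 4.97 in AL (0.96, an opposite-strand locus). Kdelr2, on its annotated locus, had 13.4 in RF, 7.41 in FA and 10.1 in AL (0.85). In all 3 the RF value was the highest of the groups, with log2 ratios of RF over AL of 0.29, 0.34 and 0.41. These Tmed3 values come from the opposite-strand locus. The locus on the strand of the gene, of lower FPKM and also matching, had 3.29 in RF, 1.01 in FA and 2.19 in AL, which is past 1.5-fold in RF against AL (log2 ratio 0.59). Tmed10, on an opposite-strand locus, had 9.16 in RF, 7.30 in FA and 9.36 in AL, within 1.5-fold in each comparison. Xbp1, from the list of regulators, had 32.5 in RF, against 21.2 in FA in the same table and 28.9 in AL (an opposite-strand locus). Creb3l2, also on a matching opposite-strand locus, went the other way, with 1.16 in RF, 1.48 in FA and 1.88 in AL. No other measured regulator had matching FA values.

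Because some paralogues differed and others did not, the share of a gene in its pair was set out as well. Sec23b made up 18.3% of the summed FPKM of Sec23b and Sec23a in FA and 35.0% in AL at the chosen loci. At the matching loci, on the opposite strand for both genes, its share was 45.1% in RF, 23.6% in FA and 41.1% in AL. Copz1 made up 63.0% of the zeta pair in FA and 71.9% in AL at the chosen loci. At the matching ones, also opposite-strand loci, it made up 71.3% in RF, 62.1% in FA and 74.4% in AL. Copg1 made up 43.7% of the gamma pair in FA and 53.3% in AL. Kdelr2 made up 28.5% of the sum of Kdelr2 and Kdelr1 in FA and 37.6% in AL, with Kdelr3 left out. Sec24d made up 45.1% of the sum of Sec24d and Sec24a in FA and 52.9% in AL, with Sec24b and Sec24c left out. The Sec24d share depends on the partner taken, since Sec24c was also lower in FA, with 6.90 in FA and 8.49 in AL (log2 ratio -0.30). Sec61a2 remained a small part of the alpha pair, 5.98% in FA and 2.56% in AL.

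**Figure D5:**
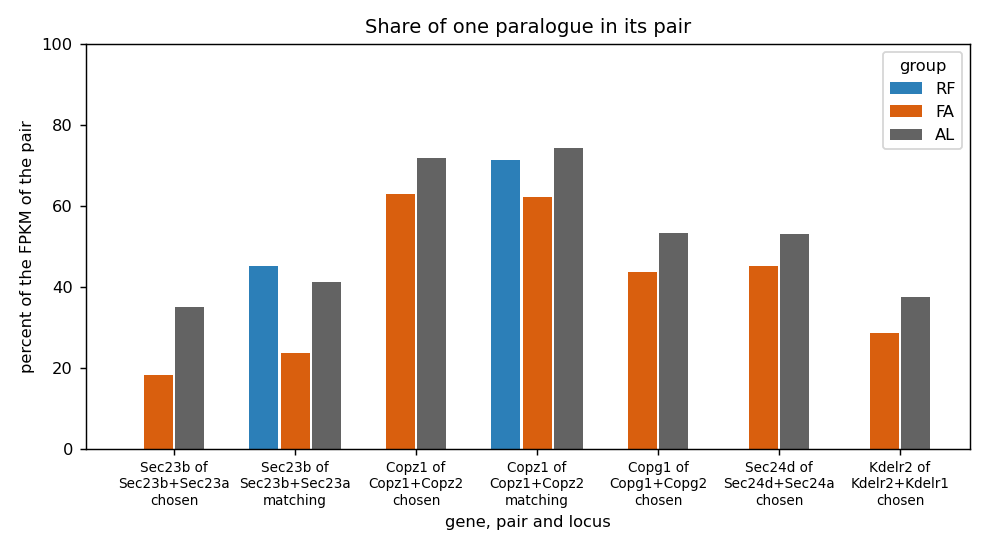
Percent of the summed FPKM of a paralogue pair (y axis) taken by the first gene in RF, FA and AL (bars from 0, 1 pooled value each, RF only at matching loci), for the pairs and loci on the x axis. The share of Sec23b is 18.3% in FA and 35.0% in AL at the chosen loci, and lowest in FA at the matching loci too. The pairs of Sec24d and Kdelr2 leave out other paralogues.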

How the data were processed

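Per the labels and methods, total RNA was depleted of ribosomal RNA and made into strand-specific libraries. Ribosomal reads were removed with Bowtie2 2.2.9, the rest were aligned to GRCm38 with STAR 2.6.0c, and transcripts were assembled and compared with Cufflinks 2.2.1 and its Cuffdiff, with names from Ensembl release 90. The authors deposited FPKM, pooled by Cuffdiff into 1 value per group. One table gives loci in FA and AL, and the other gives 1 transcript of each locus in RF and FA. The way that transcript was picked was not stated in the labels or methods. The tables also hold the authors' fold changes, test statistics, p-values, q-values and status, which were not used.

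Ratios of FPKM, medians and counts past 1.5-fold at a mean FPKM of at least 1 were computed with Python 3.11.15, pandas 2.3.3 and numpy 2.4.6, and the functions were tested on simulated data. The strand of a locus was read from the order of locus numbers. FA values matched where they lay within 10%. Named are all members past the limit in FA against AL or RF against FA, all Sec61 subunits and the 3 most abundant members of each class; the others are given by range and count, or named after their values were seen. The members and lists were chosen with earlier results of these data known. Groups came from the sample titles, and 0 columns of single libraries were found. Alternatives were other fold limits, FPKM minimums, loci, scalings and matching limits.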

Additional observations from a re-analysis of the deposited data

How the results depend on the processing

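No paired analysis was possible because the tables hold pooled values only, and for the same reason no replicate was left out. Precision is limited by unknown depth and by the lack of replicate values. Of the 15 members past the limit in FA against AL, Copg1, Ssr3, Spcs3, Sec61a2 and Tmed5 missed it under log2(FPKM + 1) or centred ratios. Most settings leave the ratio of a single gene as it is, so they say nothing about its stability.

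For FA against AL, a limit of 0.32 on the log2 scale gave 22 of 56 members lower (18.5% of all genes) and 2-fold gave 2 lower (2.67%) and 0 higher (1.47%). The count of higher members was 1 of 44 at a minimum FPKM of 5 and 0 of 56 with log2(FPKM + 1). At matching loci 0 of 24 were higher (4.84% of all genes) and 7 were lower (8.1%). For RF against FA, 10 of 15 members were higher at the limit of 0.32 (21.4% of all genes) and 2 of 15 at 2-fold (3.26%). At 1.5-fold, 1 of 7 was higher at a minimum of 5, 9 of 32 with FPKM summed over loci and 9 of 24 at matching loci (6.83%). The shares of all genes at the minimum of 5, with log2(FPKM + 1) and with summed loci were not computed. The median log2 ratio was 0.29 with log2(FPKM + 1), 0.33 with summed loci and 0.34 at matching loci. With no minimum, 20 transcripts were lower and 13 higher and the median turned to -0.13, over 56 members of which 41 had an FA value under 1 in the second table. For RF against AL, 1 of 7 members was higher at the lower limit (10.4% of all genes). On annotated-strand loci 1 of 5 was higher, Tmed3, with 3.29 in RF and 2.19 in AL. The share of all genes on such loci was not computed. The median was 0.16 at a minimum of 5. The matching loci were chosen after the tables were read.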
